A study of Mus musculus with 4 samples.

Results

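Il4, Il5, Il13, Il17rb, Hlf, Ccl1 and Neb are 7 genes whose transcripts were followed in single cells of the small-intestinal lamina propria, out of 21027 genes measured in both captures. They were given as a fixed list of columns of the count tables, read in the cells that carried the sample tag of this series. The cells were from mice, 6 to 8 weeks old, with a floxed Cxxc1 gene and a Cre that deletes it in the cells that make Cre. All cells came from a sort labelled as group 3 innate lymphoid cells (ILC3s), and all 4 samples are 1 group: 2 replicates with 2 libraries each. Every cell class below therefore comes from this one genotype, whether or not its cells ever made Cre, and no mice without these alleles were analysed here. Whether the replicates came from different animals is not given in the labels. Replicate was a block in the main fits, so p-values measure only how differences between classes varied across these 2 replicates. That spread may be technical, and it was estimated over all classes fitted and with information shared across genes. Each replicate was 1 capture, so replicate and capture cannot be told apart.

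Type 2 lymphocytes are T helper 2 cells and group 2 innate lymphoid cells (ILC2s), which share the transcription factor Gata3 and a set of cytokines but differ in the T cell receptor complex. IL-4 drives B cells and T helper 2 cells, IL-5 feeds eosinophils, and IL-13 acts on epithelium, goblet cells and smooth muscle; in the gut they take part in the response to worms and allergens. Il17rb encodes a chain of the receptor for IL-25, the signal that tuft cells send to these lymphocytes, and is the only receptor among the 7 genes. Ccl1 encodes a chemokine that binds CCR8, Hlf a transcription factor of the PAR bZIP family, and Neb the giant muscle protein nebulin, known from the thin filaments of skeletal muscle.

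Il4, Il13 and Il5 lie next to each other on mouse chromosome 11 (GRCm38, GENCODE vM21 positions). Il4 (ENSMUSG00000000869.12) spans 53602982 to 53618669 on the minus strand. Il13 (ENSMUSG00000020383.1) spans 53631324 to 53634702 on the minus strand, and Il5 (ENSMUSG00000036117.2) spans 53720794 to 53725106 on the plus strand. The starts of Il4 and Il13 were 16.0 kb apart and those of Il13 and Il5 86.1 kb apart, with Rad50 (53649519 to 53707319), a DNA repair gene, in between. Hlf (ENSMUSG00000003949.16, 90336536 to 90390895, minus strand) and Ccl1 (ENSMUSG00000020702.13, 82176657 to 82305690, minus strand) are also on chromosome 11. Il17rb (ENSMUSG00000015966.17) is on chromosome 14, 29996135 to 30008896, minus strand, and Neb (ENSMUSG00000026950.17) is on chromosome 2, 52136647 to 52378474, minus strand. The promoters of the 3 cytokine genes are shown because their transcripts shared cells, from 250 bases before to 50 bases after each annotated start (RefSeq, GRCm38.p6), 5′ to 3′ on the strand of the gene. Capitals mark a GATA word, which is AGATAA on either strand, and likewise AGATAG, and likewise TGATAA, and likewise TGATAG. RefSeq gives a pair of starts for Il4, and the one shown is nearest to the annotated gene start.
Il4 promoter, chr11:53618616-53618915, minus strand: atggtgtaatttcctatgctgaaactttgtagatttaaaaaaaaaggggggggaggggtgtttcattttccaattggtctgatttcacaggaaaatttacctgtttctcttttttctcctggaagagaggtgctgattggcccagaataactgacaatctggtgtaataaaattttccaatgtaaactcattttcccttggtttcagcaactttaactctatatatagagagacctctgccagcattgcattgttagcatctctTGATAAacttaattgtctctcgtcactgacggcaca
Il13 promoter, chr11:53634653-53634952, minus strand: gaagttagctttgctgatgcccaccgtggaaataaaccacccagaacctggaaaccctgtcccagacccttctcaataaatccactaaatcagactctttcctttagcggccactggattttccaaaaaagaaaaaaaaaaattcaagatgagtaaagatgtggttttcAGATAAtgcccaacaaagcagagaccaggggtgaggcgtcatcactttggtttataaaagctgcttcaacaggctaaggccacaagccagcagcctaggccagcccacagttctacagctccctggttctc
Il5 promoter, chr11:53720544-53720843, plus strand: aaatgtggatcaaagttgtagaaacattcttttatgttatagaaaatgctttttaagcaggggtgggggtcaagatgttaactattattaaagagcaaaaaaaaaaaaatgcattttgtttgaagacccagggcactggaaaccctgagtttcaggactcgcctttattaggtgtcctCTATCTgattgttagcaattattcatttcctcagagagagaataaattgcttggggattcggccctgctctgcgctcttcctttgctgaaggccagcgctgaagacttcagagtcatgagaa
With positions counted from 0 at the annotated start, the GATA word began at 14 in Il4, at -81 in Il13 and, on the opposite strand, at -72 in Il5. RefSeq promoters were at hand for 6 of the 7 genes. A GATA word was present in 4 of these 6 (Il4, Il5, Il13 and Ccl1), against 29.8% of 32851 mouse promoters of the same length. The word TGGAAA, part of the site read by NFAT factors and searched on both strands, was present in the same 4 genes, against 21.4% of promoters. The PAR bZIP word TTACGTAA, the palindrome that Hlf and its relatives bind, was in 0 of the 6 and in 0.119% of promoters. These matches describe the letters only and are not shown to be bound.

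The filtered data held 1904 cells in replicate 1 and 4180 in replicate 2. The median cell had 4202.5 and 2364 UMIs (UMI: unique molecular identifier, 1 counted molecule). Doublet calling removed 2.11% and 0.119% of cells, so doublets must be taken as present in replicate 2. Only 7 cell indices occurred in both replicates. Type 2 lymphocytes were 1 cluster of 37 and 186 cells (1.94% and 4.45% of cells), built without the 7 genes and named from markers other than them. It raised Gata3, Il1rl1 (the IL-33 receptor), Areg, Il9r, Calca, Hs3st1, Pparg and Cd200r1, which are 8 of the 15 listed markers in the tables. It also raised 10 T cell markers, and Il17a, a cytokine of type 17 lymphocytes, was among its 10 leading genes, so the class is not made of type 2 transcripts alone. Klrg1, a receptor common on ILC2s, had 0 UMIs in replicate 1 and 8 UMIs in replicate 2 (16.4 CPM, against 6.19 CPM in other T cells and 4.40 CPM in ILC3-like cells). The sort was labelled ILC3, but ILC3-like clusters held 574 and 1633 cells, clusters named as other T cells held 259 and 1609, and stromal-like cells held 328 and 257. Clusters left without a name held 4 and 209 cells, and 4 and 208 of these had a UMI of Cd3d, Cd3e or Cd3g. They are not counted among the other T cells. The differences in the 7 genes between this cluster and the others are given as a description without a test, because the genes were chosen with earlier results known.

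Il13 was the cytokine most restricted to type 2 lymphocytes. Its level there was 429 CPM in replicate 1 (exact Poisson 95% interval 317 to 567) and 520 CPM in replicate 2 (457 to 588), from 49 and 253 UMIs. CPM is the gene's UMIs per 1000000 UMIs of the class. Other T cells had 0 and 0.885 CPM of Il13, ILC3-like cells 0.489 and 0.440 CPM, and stromal-like cells had 0 Il13 UMIs in both replicates. Of all Il13 UMIs, 98.0% and 95.1% fell in the type 2 class. A cell of that class carried up to 16 and 22 Il13 UMIs. The zero in other T cells of replicate 1 allows a level of up to 3.49 CPM, and the intervals and such limits cover counting error only.

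Il5 was about as confined to the class. Type 2 lymphocytes had 236 CPM (156 to 344, 27 UMIs) and 384 CPM (331 to 443, 187 UMIs) of Il5. Other T cells had 1.16 and 1.47 CPM, ILC3-like cells 0 and 0.440 CPM, and stromal-like cells 0 and 2.08 CPM of Il5. The class held 90.0% and 91.7% of Il5 UMIs.

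Il4 was high in type 2 lymphocytes but less confined to them. The class had 149 CPM (86.7 to 238, 17 UMIs) and 370 CPM (318 to 428, 180 UMIs) of Il4, and the 2 intervals do not overlap. Other T cells had 10.5 CPM (4.78 to 19.9) and 14.7 CPM (10.9 to 19.4), ILC3-like cells 1.95 and 1.54 CPM, and stromal-like cells 1.06 and 2.08 CPM of Il4. The class held 41.5% and 70.3% of Il4 UMIs. In replicate 2, 21 of the 50 Il4 UMIs of other T cells were in 1 cell. Of the 7 and 21 other T cells with an Il4 UMI, 0 had an Il5 or Il13 UMI. Eosinophil-like cells, 11 and 119 cells that raised Prg2, Ccr3 and Alox15, had 171 CPM (68.8 to 352, 7 UMIs in 2 cells) and 108 CPM (51.8 to 199, 10 UMIs in 9 cells) of Il4 and 0 Il13 UMIs. Their median depth in replicate 2 was 586 UMIs, and 6 of the 7 Il4 UMIs of replicate 1 were in 1 cell.

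Il17rb, the IL-25 receptor chain, was detected in more cells of the class than any other of the 7 genes. It stood at 639 CPM (501 to 803) and 842 CPM (762 to 928) in type 2 lymphocytes, 5.81 and 3.83 CPM in other T cells, 7.33 and 7.25 CPM in ILC3-like cells, and 0.355 and 6.77 CPM in stromal-like cells. A UMI of Il17rb was found in 73.0% of type 2 lymphocytes (27 of 37, exact binomial 95% interval 55.9% to 86.2%) and 80.6% (150 of 186, 74.2% to 86.1%), against 0.305% to 2.09% of cells in these other classes. Il17rb overlaps Actr8, a gene of the opposite strand, and whether counting used strand is not given in the sources used here. Actr8 was at 26.3 and 24.6 CPM in type 2 lymphocytes and at 16.3 to 21.9 CPM in the other classes.

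Hlf had the highest level of the 7 genes in type 2 lymphocytes and the broadest low level elsewhere. It stood at 937 CPM (768 to 1132) and 1136 CPM (1043 to 1234) in the class, with a UMI in 67.6% and 66.7% of cells. Other T cells had 18.6 and 30.1 CPM, ILC3-like cells 18.1 and 49.0 CPM, and stromal-like cells 10.6 and 34.4 CPM of Hlf. Of its UMIs, 54.0% and 57.1% fell in the type 2 class. Stromal-like cells of replicate 2 had a UMI of Hlf in 14.8% of cells at a median depth of 7061 UMIs, and 31.9% of those cells also carried a CD3 UMI, so low shares there cannot be told apart from transcripts of other cells. After every cell was thinned to 1000 UMIs, Hlf was found in 51.4% and 49.4% of type 2 lymphocytes, 1.16% and 2.55% of other T cells, 0.871% and 4.37% of ILC3-like cells and 1.52% and 2.37% of stromal-like cells. Thinning left out 6 type 2 lymphocytes, 118 other T cells, 55 ILC3-like cells and 4 stromal-like cells of replicate 2.

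Ccl1 and Neb were the least even between replicates. Ccl1 was at 61.3 CPM (24.6 to 126, 7 UMIs) and 296 CPM (249 to 348, 144 UMIs) in type 2 lymphocytes, 10.5 and 1.77 CPM in other T cells, 3.42 and 0.440 CPM in ILC3-like cells, and 0 and 3.13 CPM in stromal-like cells. The class held 30.4% and 78.7% of Ccl1 UMIs, and other T cells held 39.1% and 3.28%. Macrophage or monocyte-like cells held 0 Ccl1 UMIs in replicate 1 and 21 of 183 in replicate 2. All 7 Ccl1 UMIs of ILC3-like cells of replicate 1 were in 1 cell, and 8 of the 9 in other T cells were in 1 cell. Neb was at 114 CPM (60.6 to 195, 13 UMIs) and 347 CPM (297 to 404, 169 UMIs) in type 2 lymphocytes, 19.8 and 10.03 CPM in other T cells, 7.33 and 4.84 CPM in ILC3-like cells, and 0.355 and 2.08 CPM in stromal-like cells. In both replicates the type 2 interval of Neb lay above those of these 3 classes. The class held 26.0% and 71.3% of Neb UMIs, and other T cells held 34.0% and 14.3%. The antisense gene Gm13522, which overlaps the 5′ end of Neb, had 0 and 2 UMIs in the type 2 class.

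**Figure D1:**
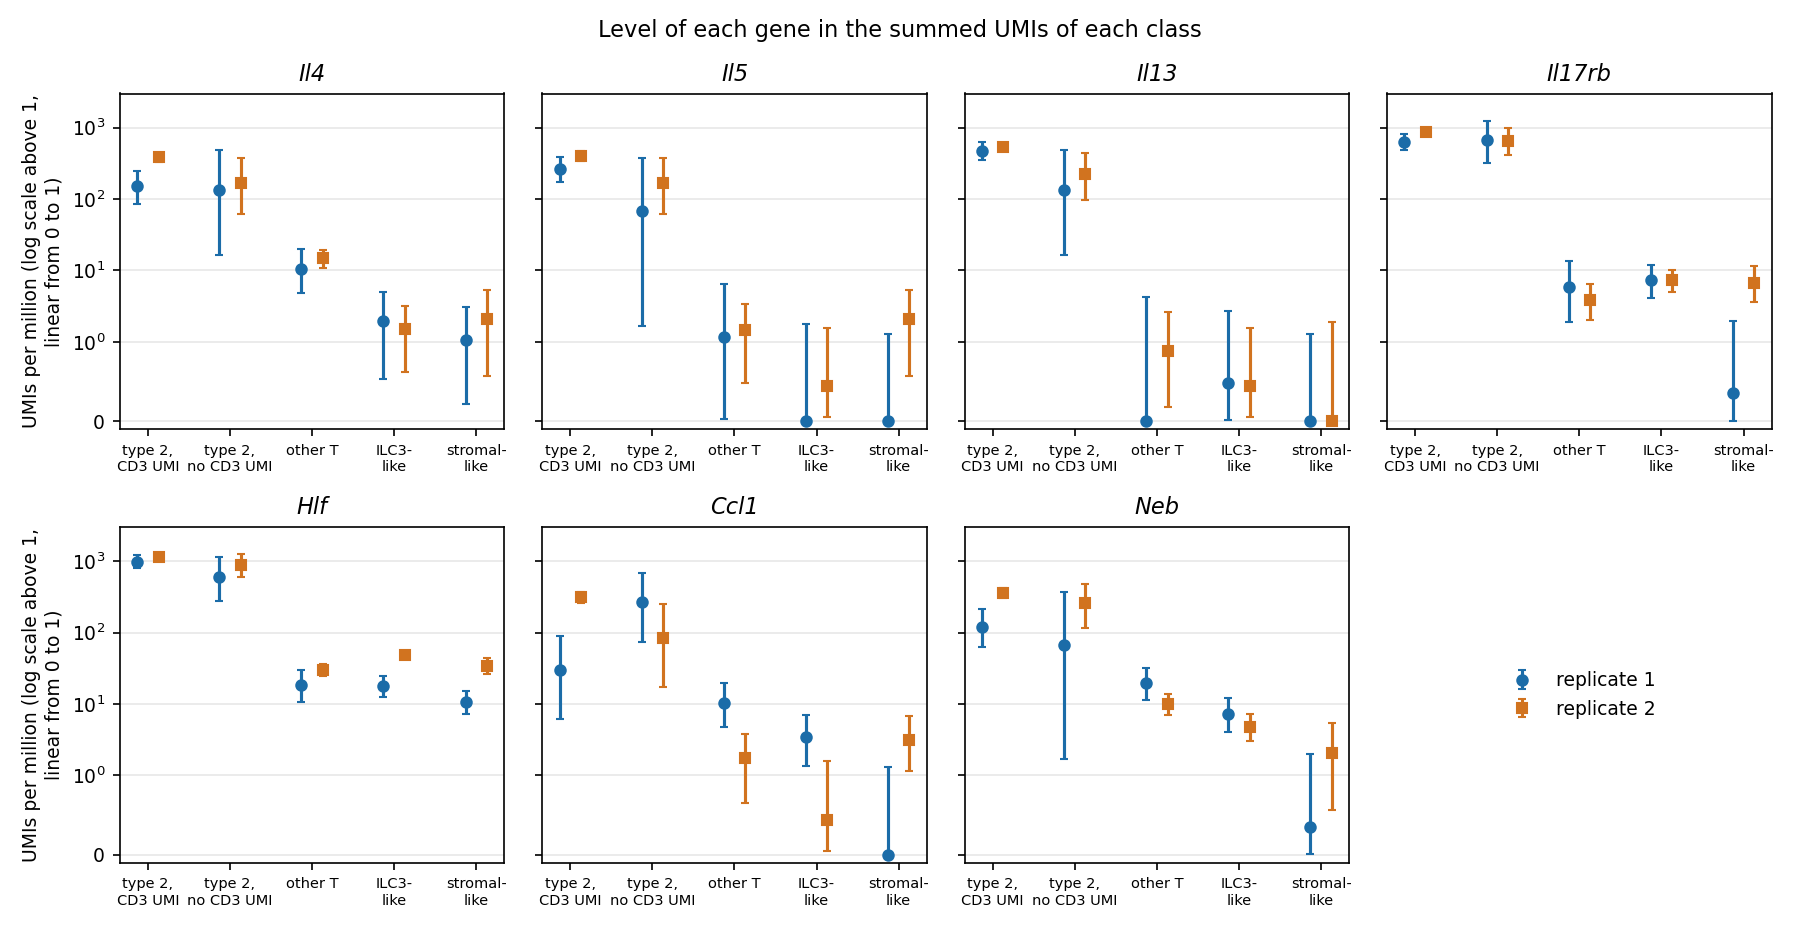
Level of each of the 7 genes, in CPM of the class, with exact Poisson 95% intervals, by class and replicate; the axis is logarithmic above 1 and linear from 0 to 1. The points of both type 2 groups stand above those of other T cells, ILC3-like and stromal-like cells for all 7 genes. The intervals of the type 2 lymphocytes without a CD3 UMI are wide because they hold 6 and 15 cells. Some points rest on few UMIs. In replicate 1, Ccl1 with CD3 has 3 UMIs (30.2 CPM, against 10.5 CPM in other T cells). Neb without CD3 has 1 UMI there (67.0 CPM, against 19.8 CPM in other T cells).

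Hlf had the highest level in the class in both replicates, then Il17rb and then Il13. In replicate 2 the intervals of these 3 genes were apart from each other and from the rest. Below them Il5 (384 CPM), Il4 (370 CPM), Neb (347 CPM) and Ccl1 (296 CPM) had overlapping intervals. In replicate 1 neighbours in the order overlapped throughout, Hlf with Il17rb and Il17rb with Il13 included. CPM are not divided by transcript length, so this is an order of counted molecules and not of levels per length.

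Of type 2 lymphocytes, 83.8% (31 of 37; 68.0% to 93.8%) and 91.9% (171 of 186; 87.0% to 95.4%) had a UMI of Cd3d, Cd3e or Cd3g, the CD3 chains of the T cell receptor complex. ILC3-like cells, which should lack CD3, had one in 4.70% and 6.74% of cells, at median depths of 3441.5 and 2697 UMIs, while the type 2 class had 2830 and 2484. Stromal-like cells had one in 3.66% and 31.9% of cells. A UMI of Cd4, the co-receptor of helper T cells, was found in 26 of 31 and 112 of 171 type 2 lymphocytes with CD3, against 0 of 6 and 0 of 15 without CD3. Trac, the T cell receptor alpha constant gene, was at 936 and 779 CPM with CD3, against 0 and 170 CPM (6 UMIs) without CD3, and at 28.8 and 41.8 CPM in ILC3-like cells. Of the beta constant genes, Trbc2 was at 1077 and 1441 CPM with CD3, against 938 and 738 CPM without CD3, and at 154 and 143 CPM in ILC3-like cells. Trbc1 had the opposite order: it was at 513 and 365 CPM with CD3, against 871 and 1022 CPM without CD3, and at 104 and 107 CPM in ILC3-like cells. In all, 31 of 31 and 166 of 171 cells with CD3 had a UMI of a T cell receptor constant gene, against 5 of 6 and 14 of 15 cells without CD3. The same was true of 47.4% and 41.5% of ILC3-like cells. Whether the gate separates ILC2s from T helper 2 cells was not tested. Median depth was 2831 and 2503 UMIs with CD3, against 2802 and 2033 UMIs without CD3.

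Type 2 lymphocytes with and without CD3 both had UMIs of all 7 genes, and 0 of the 7 passed the test between them. Il13 had 473 and 542 CPM (47 and 245 UMIs) with CD3, against 134 and 227 CPM (2 and 8 UMIs) without CD3. Il5 had 262 and 401 CPM with CD3, against 67.0 and 170 CPM (1 and 6 UMIs) without it. Il4 had 151 and 385 CPM with CD3, against 134 and 170 CPM (2 and 6 UMIs) without it. For these 3 cytokines the group with CD3 was the higher in both replicates, but every count without CD3 was 8 UMIs or fewer.

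Hlf had 987 and 1156 CPM with CD3, against 603 and 880 CPM without CD3. Il17rb had 634 and 857 CPM with CD3, against 670 and 653 CPM without it. Neb had 121 and 354 CPM with CD3, against 67.0 and 256 CPM without it. The 2 replicates gave opposite orders for Il17rb, and also for Ccl1, which had 30.2 and 312 CPM with CD3 and 268 and 85.2 CPM without it.

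The 7 genes were tested with edgeR's quasi-likelihood fit over 10634 genes (the 3 gate genes left out). It called 15 genes higher with CD3 (0.141% of those tested) and 5 lower (0.047%), at a Benjamini-Hochberg adjusted p under 0.05, and 0 of the 7. At an unadjusted p under 0.05 there were 753 genes. The median log2 fold change of all tested genes was 0.73, and 0.56 over 964 genes with 100 or more UMIs in the type 2 sums. On this scale Il13 had a log2 fold change of 1.90 (SE 0.48, edgeR adjusted p = 0.068), Il5 1.88 (SE 0.57, adjusted p = 0.22), Il4 1.42 (SE 0.56, adjusted p = 0.49) and Hlf 1.10 (SE 0.38, adjusted p = 0.36). Il17rb was at 0.72 (SE 0.40), Neb at 0.97 (SE 0.57) and Ccl1 at 1.08 (SE 0.74), with edgeR adjusted p-values of 0.74, 0.75 and 0.80. Of the 7 genes, 4 had an unadjusted p under 0.05. When the 4 type 2 sums were fitted alone, the median of all genes was 0.03, the 7 genes ran between 0.29 and 1.47, and 0 of them were called. When cells were thinned to 1000 UMIs and gated again they ran between 0.00 and 0.38. Il13 did pass in 4 other settings, with edgeR adjusted p-values of 0.040 when CD3 needed 2 UMIs, 0.028 when the 7 genes helped build the clusters, 0.019 at a finer clustering and 0.0086 with called doublets kept. Those 4 settings called 16 to 24 genes higher, of 10635 to 10671 tested. With a class drawn by a marker gate and no clustering, 5 of the 7 passed, all higher with CD3, where 0.287% of 10806 genes were called higher. That gate took cells of any cluster with UMIs of Gata3 and other type 2 markers. ILC3-like cells fell from 574 and 1633 to 567 and 1615, and the gated group without CD3 held 11 and 23 cells. What part the cells from other clusters have in these passes was not tested.

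**Figure D2:**
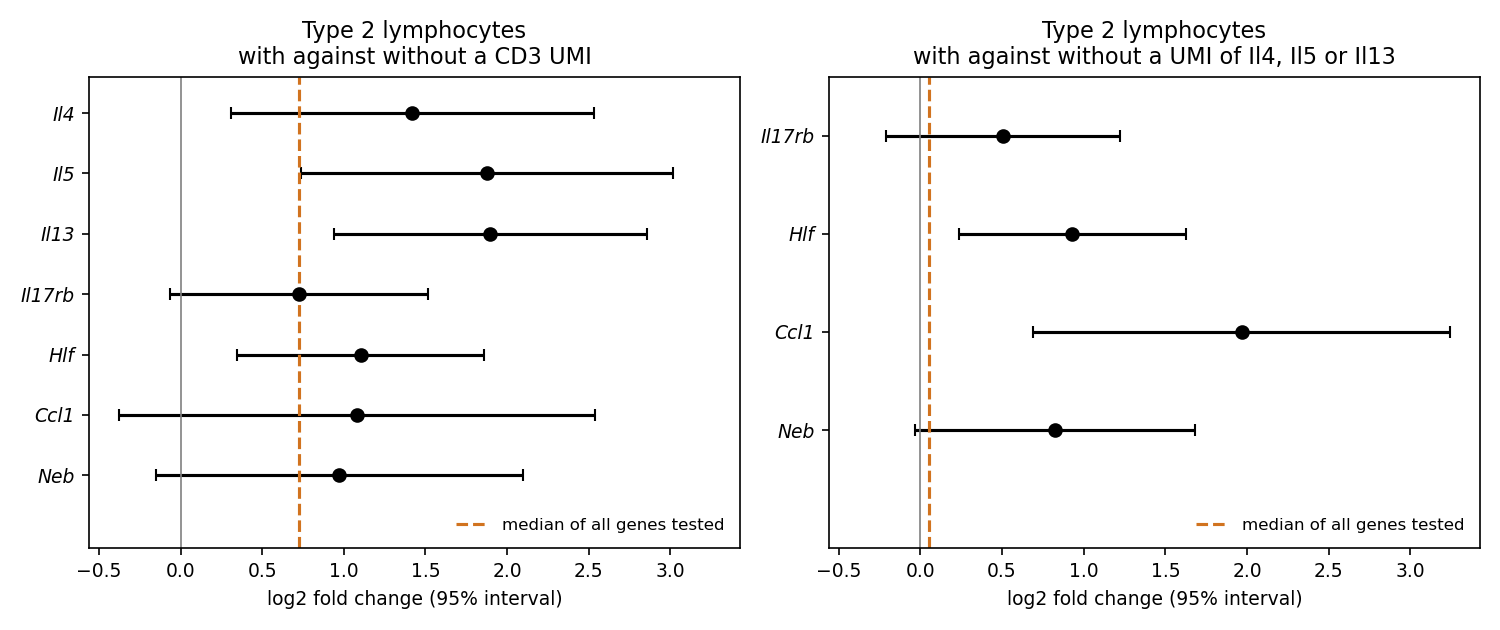
Log2 fold changes with 95% intervals from edgeR, of type 2 lymphocytes with against without a CD3 UMI (left) and with against without a UMI of Il4, Il5 or Il13 (right); the dashed line is the median of all genes tested. On the left the dashed line stands at 0.73, below the intervals of Il13 and Il5 and inside those of the other 5 genes.

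The following genes did pass and are named after their values were seen. Among the 15 higher with CD3 were Cd4 (765 and 509 CPM with CD3, 0 UMIs without), Cd40lg, Tnfsf8, Ctla4, Runx1 and Il17a. Il17a had 148 and 319 UMIs with CD3 and 0 without, but 130 of the 148 in replicate 1 were in 1 cell, and 43 cells carried it in replicate 2. Lower with CD3 were the class II antigen presentation genes Cd74, H2-Aa and H2-Eb1, the receptor kinase Ret, and Ptgs2, an enzyme of prostaglandin synthesis. Cd74 had 141 and 115 CPM with CD3, against 1743 and 994 CPM without it (log2 fold change -2.93, SE 0.42, edgeR adjusted p = 6.2e-07). Cd74 was found in 8 of 31 and 37 of 171 cells with CD3, against 5 of 6 and 4 of 15 without it, and 22 of the 35 UMIs of replicate 2 without CD3 were in 1 cell. ILC3-like cells had 764 and 1012 CPM of Cd74, and what part such cells have in the group without CD3 was not tested. Ptgs2 (log2 fold change -5.29, SE 0.46, edgeR adjusted p = 5.7e-16) rested on few cells: of the 20 and 63 UMIs without CD3, 20 and 57 were in 1 cell each. Without the replicate block Il17a was the only gene called higher and Ptgs2 the only one called lower. With the 4 type 2 sums alone, where 1182 genes were tested, Ptgs2 was the only gene called. So Cd74, H2-Aa, H2-Eb1 and Ret were called in neither, and whether each was among those 1182 genes is not given here.

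**Figure D3:**
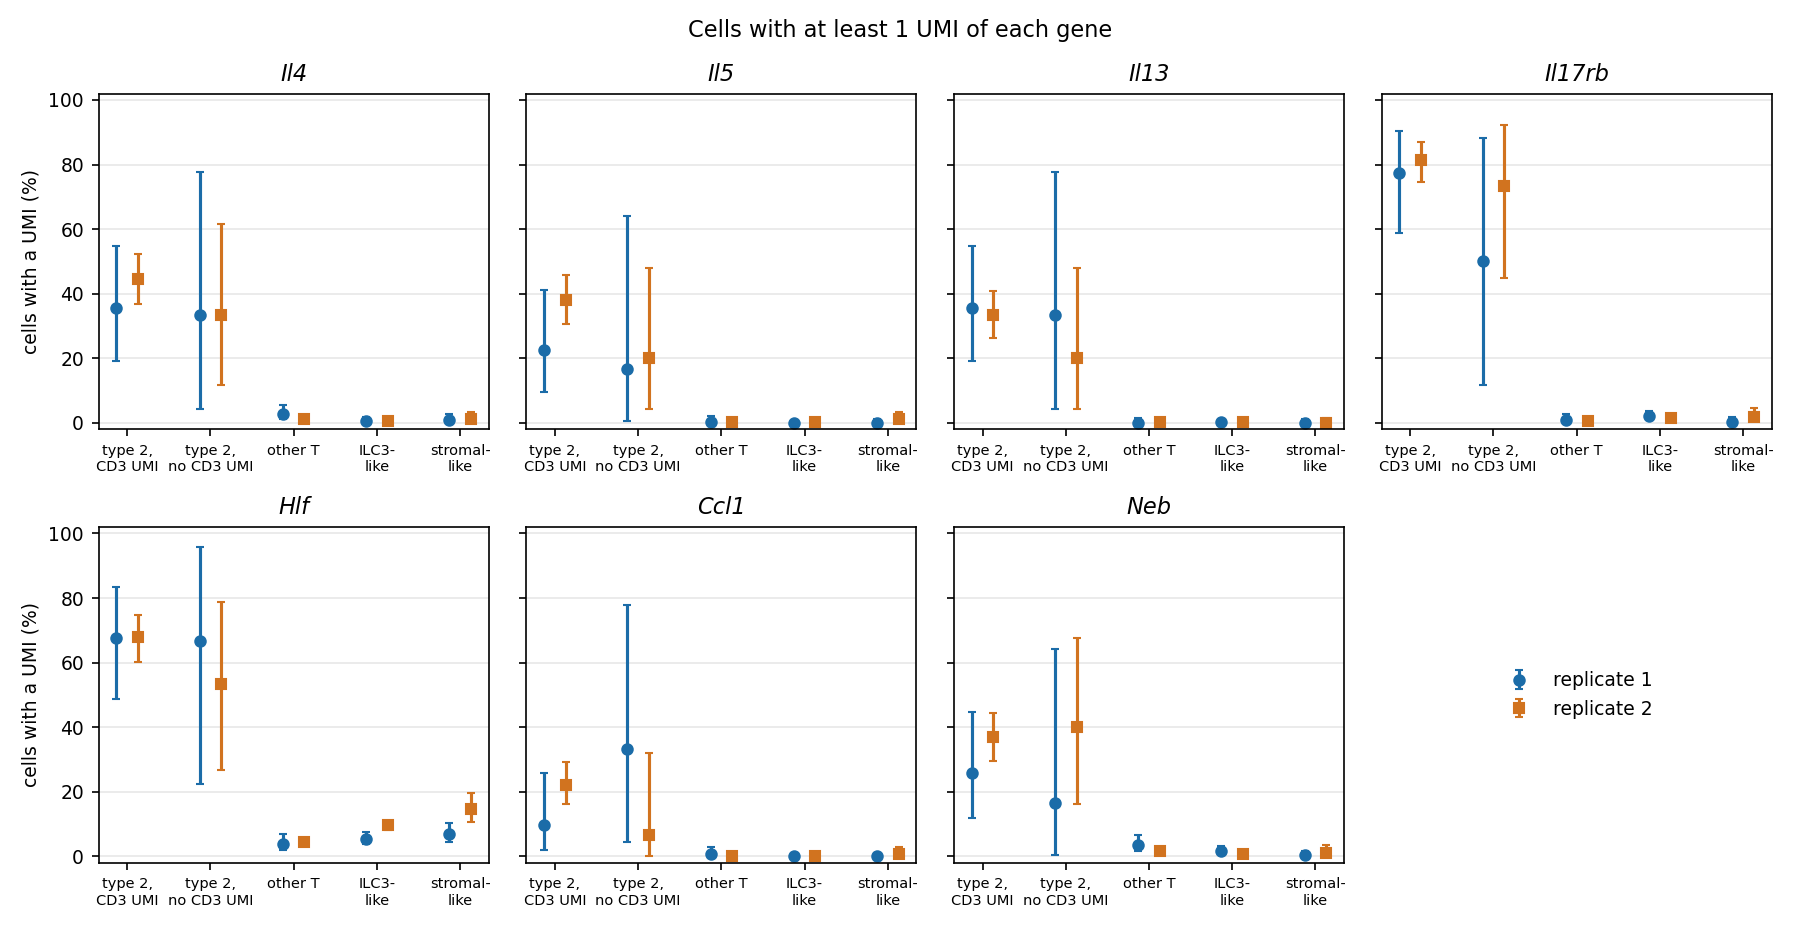
Percent of cells with at least 1 UMI of each gene, with exact binomial 95% intervals, by class and replicate. The intervals of type 2 lymphocytes with and without a CD3 UMI overlap for all 7 genes in both replicates, and the shares of other T cells, ILC3-like and stromal-like cells are at most 14.8%.

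Within the class, the 3 cytokine genes were often found in the same cells. A UMI of Il4, Il5 or Il13 was present in 54.1% of type 2 lymphocytes (20 of 37; 36.9% to 70.5%) and 63.4% (118 of 186; 56.1% to 70.4%). At least 2 of the 3 were present in 13 and 63 cells (35.1% and 33.9%), and all 3 in 1 and 28 cells. The commonest state with a cytokine was Il4 with Il13 in replicate 1 (6 cells) and all 3 together in replicate 2 (28 cells), followed there by Il4 alone (26 cells). In other T cells a cytokine UMI was found in 8 of 259 and 28 of 1609 cells, and 0 of them had UMIs of 2 of the 3. That allows up to 1.16% and 0.186% of cells with such UMIs; at median depths of 2715 and 1993 UMIs it sets no limit on cells that express 2 of the genes. In ILC3-like cells 4 of 574 and 10 of 1633 had a cytokine UMI and 1 cell of each replicate had 2. In stromal-like cells 3 of 328 and 4 of 257 had a cytokine UMI, and 0 and 2 cells had 2. Outside the class 1 and 5 cells in all had 2 or more; the 5 cells of replicate 2 all carried CD3, at a median of 15674 UMIs, and the cell of replicate 1 had no CD3 and 3991 UMIs. In the class, 17 of 31 and 111 of 171 cells with CD3 had a cytokine UMI, against 3 of 6 and 7 of 15 without CD3.

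**Figure D4:**
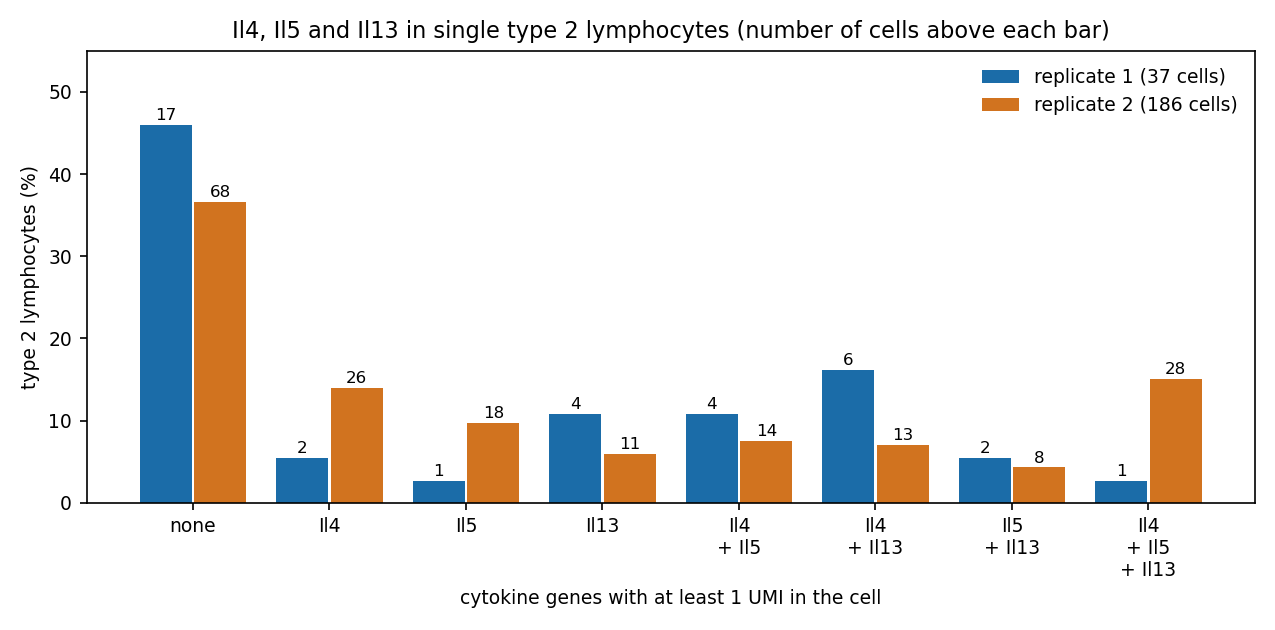
Percent of type 2 lymphocytes with each combination of Il4, Il5 and Il13 UMIs, by replicate, with the number of cells above each bar. Cells with none are the largest group in both replicates (17 and 68 cells), and all 3 genes together are found in 1 cell of replicate 1 and 28 cells of replicate 2.

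Il5 and Il13 were found together most clearly in replicate 2, the one with more cells. Il5 was found in 36 of 60 cells with Il13 (interval 46.5% to 72.4%), against 25.4% of cells without Il13 (32 of 126; 18.1% to 33.9%). In replicate 1 these shares were 23.1% (3 of 13) and 20.8% (5 of 24), with intervals that overlap. Il4 was found in 68.3% of Il13-positive cells (41 of 60), against 31.7% of Il13-negative cells in replicate 2, and in 7 of 13 against 6 of 24 in replicate 1. Cells with a cytokine UMI were deeper, with medians of 2985 and 2740 UMIs, against 2780 and 2111 in cells without one. At 1000 UMIs per cell, Il5 remained in 47.6% of Il13-positive cells (20 of 42; 32.0% to 63.6%), against 15.2% of Il13-negative cells (9.7% to 22.3%) in replicate 2. For Il4 the thinned shares, 33.3% (19.6% to 49.5%) of Il13-positive against 21.7% (15.2% to 29.6%) of Il13-negative cells, had overlapping intervals. These are counts of cells within 1 capture and carry no test.

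Hlf was compared between cells with and without the other genes. In replicate 2, Hlf was found in 89.7% of cells with Il5 (61 of 68), against 53.4% of cells without Il5, and in 86.7% of cells with Il13, against 57.1% without it. At 1000 UMIs per cell the shares were 63.4% (46.9% to 77.9%) with Il5, against 45.3% (36.9% to 54.0%) without it, with overlapping intervals, and 69.0% (52.9% to 82.4%) with Il13, against 43.5% (35.1% to 52.2%) without it, whose intervals do not overlap. In replicate 1 the thinned shares were 2 of 4 cells with Il5, against 17 of 33 without it, and 6 of 9 with Il13, against 13 of 28 without it. In replicate 1 the unthinned Il5 pair was 62.5% (5 of 8) against 69.0%, so the direction was not shared. Hlf was found in 81.5% and 72.7% of cells with Il17rb, against 3 of 10 and 15 of 36 cells without Il17rb. Thinned to 1000 UMIs, these shares were 56.2% and 55.9% with Il17rb, against 47.6% and 42.5% without it, with overlapping intervals. The other pairs with Hlf did not all go this way. In thinned cells of replicate 2, Hlf was found in 38.5% of cells with Ccl1, against 51.3% without it. The shares were 39.5% with Neb, against 52.1% without it, and 52.3% with Il4, against 48.5% without it. Intervals overlapped in all of these pairs, and thinned replicate 1 held only 2 or 3 cells with each of these genes. Neb was found in 56.7% of Il13-positive cells (34 of 60), against 27.8% of Il13-negative cells in replicate 2, and 30.8% (4 of 13) against 20.8% in replicate 1. After thinning, the replicate 2 shares of Neb were 28.6% (15.7% to 44.6%) with Il13 and 18.8% (12.7% to 26.4%) without it, with overlapping intervals. With Il17rb the order was the opposite: the thinned replicate 2 share of Neb was 15.1%, against 27.6% without Il17rb, also with overlapping intervals. Ccl1 was found in 29.6% of Il4-positive cells, against 14.3% of Il4-negative cells in replicate 2, and in 7.7% (1 of 13) against 16.7% in replicate 1. After thinning, the replicate 2 shares of Ccl1 were 22.7% with Il4 and 11.8% without it, and their intervals overlap. Counting all 7 genes, 18 of 37 and 118 of 186 type 2 lymphocytes carried 3 or more, with 2 cells of replicate 2 carrying all 7. Of the 1867 and 3994 cells outside the class, 0 and 9 carried 3 or more; 8 of those 9 had a CD3 UMI and their median depth was 7462 UMIs.

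**Figure D5:**
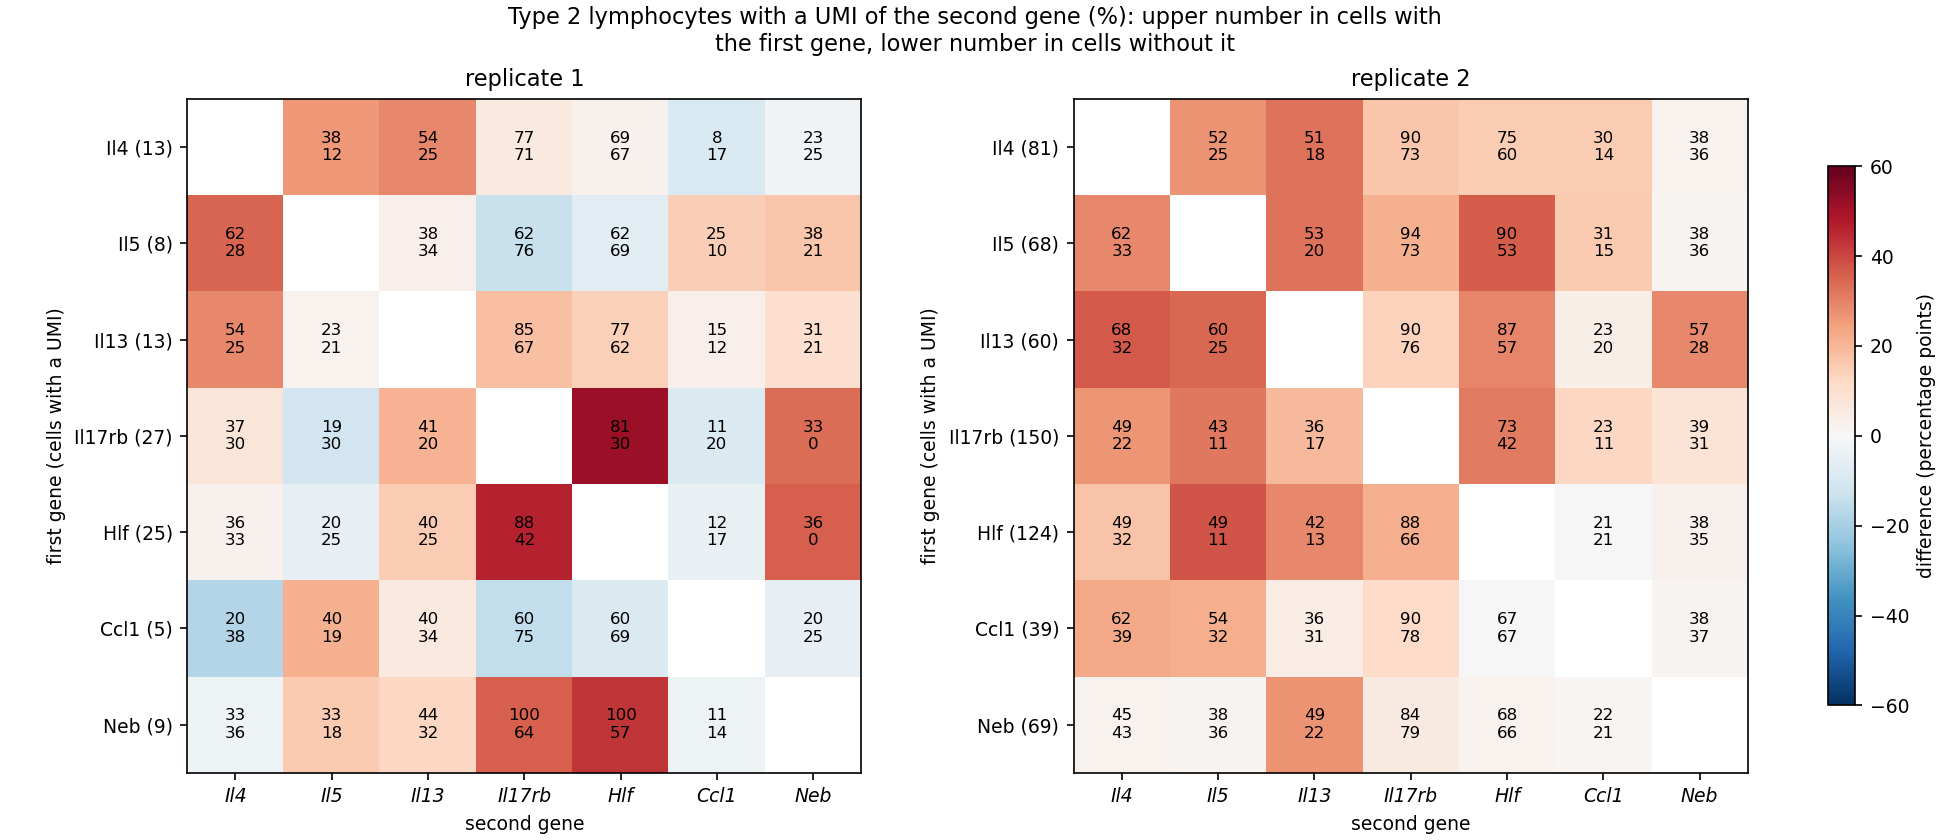
Percent of type 2 lymphocytes with a UMI of the second gene (columns), among cells with the first gene (upper number) and without it (lower number); colour is the difference in percentage points and the number of cells with the first gene is in brackets. In replicate 2 all pairs among Il4, Il5 and Il13 are positive, and in replicate 1 Il5 stands at 23.1% with Il13 and 20.8% without it.

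A further test, added after the values were seen, set type 2 lymphocytes with a UMI of Il4, Il5 or Il13 (20 and 118 cells) against those without (17 and 68 cells). The edgeR fit over 10654 genes called 1 gene higher with the cytokines (0.00939%) and 0 lower, while 472 had an unadjusted p under 0.05 and DESeq2 called 0. The gene was Il17a (log2 fold change 3.02, SE 0.48, edgeR adjusted p = 4.1e-04), with 148 UMIs in 3 cells of replicate 1, all with a cytokine UMI. Its fold change was 1.91 without replicate 1 and 13.93 without replicate 2, where cells without a cytokine had 0 UMIs, so that value is no bound. Without the replicate block its adjusted p in edgeR was 0.99. Of the 4 genes not used by the split, none passed: Ccl1 had a log2 fold change of 1.97 (SE 0.63), Hlf 0.93 (SE 0.34), Neb 0.82 (SE 0.43) and Il17rb 0.51 (SE 0.36), with edgeR adjusted p-values from 0.94 to 0.99. Their median was 0.88, beside 0.05 over all genes tested and 0.14 over 964 genes with 100 or more UMIs in the type 2 sums. The 4 genes were chosen with earlier results known, so these medians are a description and not a test. In replicate 1 alone Ccl1 was at -0.84, Neb at -0.21, Il17rb at 0.09 and Hlf at 0.43. In other settings Ccl1 passed without a filter (edgeR adjusted p = 0.033) and Hlf with the 4 type 2 sums alone (edgeR adjusted p = 0.032). Without a filter 9 of 18725 genes tested were called higher, and with the 4 sums 9 of 1954, where Ccl1 was not tested. With the marker gate Il17rb, Hlf and Ccl1 passed (edgeR adjusted p of 0.041, 0.013 and 0.030), where 0.103% of 10731 genes were called higher. That gate also took cells of other clusters, and what part they have in these passes was not tested. Nfil3, a bZIP repressor that reads sites like those of Hlf, and the cytokine Il6 stood at 1.98 (edgeR adjusted p = 0.080) and 1.91 (edgeR adjusted p = 0.18).

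The other genes of the pathway were read from 8 lists, and between cells with and without CD3 only Ptgs2 of the lipid and chemokine list passed (1 of 8 tested, lower). The counts of passing genes were 0 of 6 receptors of type 2 cytokines, 0 of 8 alarmins and alarmin receptors, 0 of 11 other products, 0 of 20 transcription factors, 0 of 8 locus neighbours, 0 of 11 PAR bZIP and clock genes and 0 of 6 sarcomere genes. The lists' median log2 fold changes ran from -0.10 for the lipid and chemokine list to 1.44 for the PAR bZIP and clock genes, beside 0.73 over all genes. The 1.44 was the value of Arntl (SE 1.39), which had 1 and 0 UMIs without CD3. In that list, which includes Hlf, Clock, Tef, Cry1 and Cry2 had 0 UMIs without CD3. Their values of 6.63 to 8.28 are therefore no bound, and the median does not show that these genes are higher with CD3. In the cytokine split 0 genes of these 8 lists passed.

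Of the receptors, the type 2 class had the shared gamma chain Il2rg at 910 and 949 CPM, against 599 to 912 CPM in other T and ILC3-like cells. Il4ra, Il13ra1, Csf2rb and Il5ra were lower in the class than Il2rg. Il4ra, the shared IL-4 and IL-13 receptor chain, was at 78.8 and 71.9 CPM in type 2 lymphocytes, 132.5 and 132.7 CPM in other T cells, 192 and 171 CPM in ILC3-like cells and 38.6 and 41.2 CPM in stromal-like cells. Il13ra1, its partner in the IL-13 receptor, had 0 UMIs in the type 2 class and 57.4 and 42.7 CPM in stromal-like cells. Csf2rb, the chain that signals for IL-5, was at 17.5 and 2.05 CPM in the class and at 244 and 572 CPM in eosinophil-like cells, and Il5ra, the IL-5 binding chain, had 0 UMIs in the class and 3 in eosinophil-like cells of replicate 2. Il9r, the IL-9 receptor, was at 52.5 and 154 CPM in type 2 lymphocytes and at most 2.65 CPM in other T, ILC3-like and stromal-like cells. Il1rl1 was at 158 and 427 CPM in the class and also at 89.5 and 197 CPM in other T cells. Il33, the ligand of that receptor, had 0 UMIs in the class and was at 198 and 147 CPM in stromal-like cells, and Il25, the ligand of Il17rb, had 0 UMIs in these classes and in ILC3-like and eosinophil-like cells. Ccl11, the eosinophil attractant that IL-4 and IL-13 induce, was at 8.75 and 4.11 CPM in the class, against 446 and 297 CPM in stromal-like cells.

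Other products and regulators are given as levels, several of them being genes that shaped the cluster. Areg, an epidermal growth factor ligand, was at 324 and 799 CPM in type 2 lymphocytes, against 10.5 and 45.4 CPM in other T cells and 37.1 and 65.9 CPM in ILC3-like cells. Calca, the gene of the neuropeptide CGRP, was at 516 and 715 CPM, against 17.4 and 14.2 CPM in other T cells and 4.40 and 8.13 CPM in ILC3-like cells. Il6 was at 254 and 232 CPM in the class, 8.14 and 1.77 CPM in other T cells, and 205 and 254 CPM in stromal-like cells. Gata3 was at 735 and 1006 CPM in the class, against 137 and 85.2 CPM in other T cells and 94.8 and 114 CPM in ILC3-like cells. Of the same list, Junb, Rora and Bhlhe40 stood above Gata3 in the class. In type 2 lymphocytes with CD3 they were at 2094 and 3174, 1802 and 1910, and 1661 and 2125 CPM. ILC3-like cells had 2065 and 2725 CPM of Junb, 2495 and 2497 CPM of Rora and 1064 and 1058 CPM of Bhlhe40. Lmo4 was at 2215 and 1548 CPM in the class, 102.3 and 139 CPM in other T cells, 828 and 756 CPM in ILC3-like cells and 360 and 354 CPM in stromal-like cells. Rad50, which lies between Il13 and Il5, was at 149 and 191 CPM in type 2 lymphocytes, 33.7 and 38.0 CPM in other T cells, 43.5 and 46.8 CPM in ILC3-like cells and 31.2 and 40.6 CPM in stromal-like cells. Kif3a, on the other side of Il4, was at 35.0 and 45.2 CPM in the class and 37.5 to 56.8 CPM in those 3 classes. Of the other PAR bZIP genes, Tef was at 43.8 and 10.3 CPM and Dbp at 8.75 and 4.11 CPM in the class, beside 937 and 1136 CPM of Hlf. Il33, Il25, Il13ra1, Il5ra, Ccl11, Kif3a, Tef, Dbp and Ttn are named after their values were seen. Of the sarcomere genes beside Neb, Actn2 was at 184 and 88.3 CPM in the class, against 93.0 and 70.8 CPM in other T cells and 13.7 and 13.4 CPM in ILC3-like cells, and Ttn had 0 and 12.3 CPM.

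Over 24 sums of clusters and replicates with at least 20 cells, the genes most like each of the 7 were found by Pearson's r of log2(CPM + 10), as a description over sums that share captures and include the type 2 cluster. 1700061F12Rik was among the 3 most alike for all 7, with r from 0.85 for Ccl1 to 0.96 for Il5. Il9r led for Il5 (r = 0.97) and Il13 (r = 0.96), Nxpe4 for Il4 (r = 0.90) and Ccl1 (r = 0.91), and Ptpn13 for Hlf (r = 0.93). Calca was among the 3 for Il5, Il13, Il17rb and Neb. Among the 7 themselves, Il5 with Il13 had r = 0.97 and Il4 with Neb r = 0.95.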

How the data were processed

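Single cells of 2 replicates were counted on a BD Rhapsody system, and 4 samples share 1 table of cells per replicate, with 1 sample tag each. Per the file headers, the deposited counts are molecules (UMIs) per cell and gene from the BD WTA Multiplex Rhapsody Analysis Pipeline version 1.8, with GENCODE vM19 genes. HISAT2 2.0.5, Bowtie2 and GRCm38.p6 appear in the submitters' processing notes. The tag calls were used as deposited by the authors: 2077 of 8064 and 4532 of 15793 cells carried the tag of the series, and these held 11939862 and 12141164 UMIs. Columns not used numbered 0.

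Cells needed 300 genes, and no more than 25% of their UMIs could be mitochondrial; Scrublet doublets were left out. The remaining cells were clustered with scanpy 1.11.5 and leidenalg 0.10.2 (resolution 0.8) on variable genes without the 7 genes. A cluster took a name when 3 or more listed markers were raised. UMIs were summed per class and replicate, and 10 sums of 5 classes were fitted with edgeR 4.0.16 (TMM, filterByExpr, quasi-likelihood test, Benjamini-Hochberg adjustment). Replicate was a block, because the classes of a replicate come from the same sample. DESeq2 1.42.0, other filters, gates, clusterings and depths were tried as alternatives. The fits were also run on simulated data, with a smaller spread than that of these data and no difference between replicates. That run therefore does not show how the fits perform on these data. Intervals are exact Poisson or Clopper-Pearson at 95% and cover counting error only, and a count of 0 was given a limit of 3 counts.

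The 7 genes and all gene lists were chosen with earlier results of these data known. Other genes named are those of the lists that passed the CD3 test or had the 4 highest levels in the class, and the 3 most alike by correlation, unless stated otherwise. Gata3 and Csf2rb are named although they were below the 4 highest levels of their lists. Not every gene that met the rule is named. Promoters are from RefSeq on GRCm38.p6 and gene positions from GENCODE vM21. The gene that drives Cre is not reported here.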

Additional observations from a re-analysis of the deposited data

How the results depend on the processing

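The tests rest on 6 and 15 cells without CD3 and on 2 replicates, which limits every fold change against them. Counts of called genes moved with most choices, and the cause was not tested. With against without CD3, 15 genes were called higher and 5 lower. Other settings gave 9 higher with RLE size factors, 3 with DESeq2, 0 with the 4 type 2 sums alone, 0 with cells thinned, 24 with doublets kept and 31 with the marker gate. These counts are not over the same genes: 10634 were tested in the main fit, 1182 with the 4 sums and 6176 with cells thinned. Of lower genes there were 1 with the 4 sums, 8 each with the 7 genes among the variable genes, at the higher resolution and with doublets kept, and 21 with the marker gate. Without the replicate block 1 gene was higher and 1 lower. A gate that also took T cell receptor genes left 1 cell per replicate without them, and its 513 higher genes, 1 lower gene and log2 fold change of 11.002 for Ptgs2 cannot be read.

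For cells with against without Il4, Il5 or Il13, 1 gene was higher and 0 lower. The higher count was 0 with DESeq2, 0 without the replicate block, 9 without a filter, 9 with the 4 sums, 5 with doublets kept and 11 with the marker gate. The lower count was 1 without a filter, 2 with the 4 sums, 1 with cells thinned, 1 with doublets kept and 25 with the marker gate. Genes tested were 10654 in the main fit, 18725 without a filter, 1954 with the 4 sums and 6152 with cells thinned. This comparison and its settings were chosen after seeing the data.

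Leaving out 1 replicate gave values with no test. With against without CD3, Ccl1 ran from -2.57 without replicate 2 to 2.27 without replicate 1. In the cytokine split, without replicate 2 and without replicate 1, Ccl1 was -0.84 and 2.61, Neb -0.21 and 1.14, and Il17a 13.93 and 1.91. Ptgs2 there was 11.12 without replicate 2 and -3.33 without replicate 1, against a main value of -1.15, because 0 UMIs lay in the cells without a cytokine in replicate 1.

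The share of type 2 lymphocytes with a cytokine UMI, 54.1% and 63.4%, was 29.6% in replicate 1 with the marker gate, 35.1% and 48.9% with cells thinned, and 29.7% and 41.4% when 2 UMIs were needed. The share with CD3, 83.8% and 91.9%, was 59.3% and 84.2% with the marker gate and 67.6% and 77.8% thinned. Il5 among Il13-positive cells was 0% with the marker gate in replicate 1 and 43.9% at 2 UMIs in replicate 2. Of all cells with a cytokine UMI, 50% and 67.0% were type 2 lymphocytes; this was 20% and 47.2% with the marker gate, 72.2% and 80.7% thinned, and 78.6% and 85.6% at 2 UMIs. In total 333 of 450 recomputed values kept their direction and their side of the threshold or their size. A tested fold change counted as kept when its sign and its call were unchanged, whatever its size. With against without CD3, Il13 at 0.30 with cells thinned, against 1.90 in the main fit, was counted as kept. The total is therefore no measure of how steady the fold changes were.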
